A study of Drosophila melanogaster with 24 samples.

Results

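The 9 hemocyte basement membrane genes trol, LanA, LanB1, LanB2, vkg, Col4a1, Ppn, Pxn and SPARC were followed through 6 lists of ChIP-seq peaks from Kc167, an established Drosophila melanogaster cell line derived from embryos. They were taken as named genes out of 17684 genes of the RefSeq table on the 6 chromosome arms, and all 9 were matched by symbol. A peak was placed at a gene when any base of it lay within 5 kb of the gene span. The site shared by trol and its neighbour boi was included by this rule.

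Mock cells were precipitated for Su(Hw), Mod(mdg4)2.2, CP190 and, with 2 different rabbit antibodies, CLAMP, with 2 libraries for each antibody and 10 input libraries. Cells transfected with 5 ug of double-stranded RNA (dsRNA) against Clamp and kept for 6 days gave 2 libraries with the second CLAMP antibody and 2 inputs. All groups are the same cell line with no other genetic change in the labels, and the labels do not say what the mock cells received. The 2 libraries behind each list were pooled by the authors, so the values carry no replicate error, conditions could not be tested against each other, and the depth is unknown.

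A basement membrane is a thin sheet of extracellular matrix under epithelia and around organs. Laminin, a trimer of an alpha, a beta and a gamma chain, and collagen IV each form networks in it, and perlecan, a heparan sulfate proteoglycan, is held in those networks. In Drosophila the hemocytes (blood cells) and the fat body secrete much of this material, and Kc cells have long been a source of secreted matrix proteins. Su(Hw) is a zinc-finger DNA-binding protein that recruits CP190 and Mod(mdg4)2.2 to gypsy-type insulator sites. CP190 is also found at many promoters without Su(Hw), and CLAMP is a zinc-finger protein that binds GA-rich DNA and takes part in X-chromosome dosage compensation. RNA was not measured in these libraries, so neither the expression of the 9 genes nor the hemocyte character of the cells could be checked here.

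CP190 had a peak at all 9 genes, the first CLAMP antibody at 6, the second at 5, Su(Hw) at 4 and Mod(mdg4) at 2. No member had a CLAMP peak after dsRNA. The same rule called 78.2% of all genes for CP190, 37.9% and 35.8% for the CLAMP antibodies, 26.5% for Su(Hw), 14.2% for Mod(mdg4) and 2.58% for CLAMP after dsRNA. The members are long genes, with a median span of 14192 bases against 1710 for all genes, and a longer span meets more peaks. Among the 5538 protein-coding genes in the length range of the members, the shares were 91.4% for CP190, 54.1% and 51% for the CLAMP antibodies, 34% for Su(Hw), 18.3% for Mod(mdg4) and 2.74% after dsRNA. Read against genes of like length, the members' counts were near the background in every list, and none of them is a result particular to these genes.

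**Figure D1:**
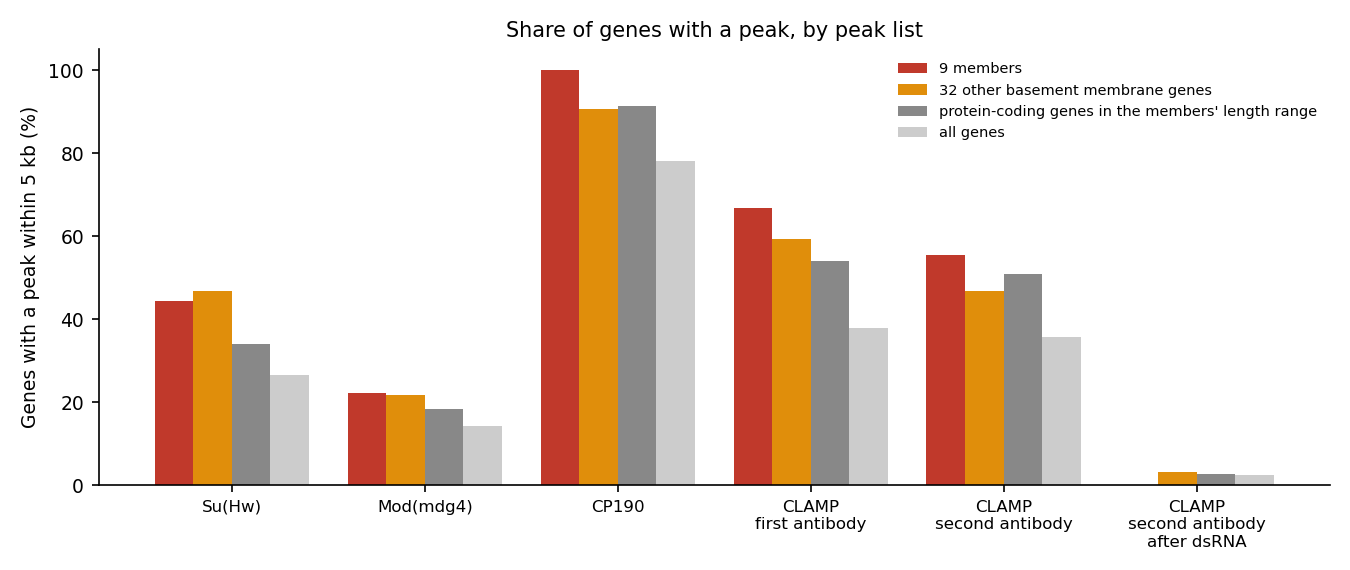
Share of genes (vertical axis, percent) with a peak within 5 kb, for each of the 6 peak lists. Bars stand for the 9 members, 32 other basement membrane genes, protein-coding genes in the members' length range and all genes; the members lie near the length-range bars, and no member has a bar after dsRNA.

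What set the members apart from each other was which proteins they carried. trol and Pxn had peaks in all 5 mock lists, as had 847 genes (4.79%) in all. trol and Pxn are the longest members, at 75.0 and 28.6 kb, and the CLAMP peaks of Pxn lay outside its span. The shares in this paragraph are over all genes, and none was computed for genes of like length. LanA, LanB1 and LanB2 had CP190 and both CLAMP antibodies without Su(Hw) or Mod(mdg4), a combination found at 19.1% of all genes when the dsRNA list is also empty. vkg and Col4a1 had Su(Hw) and CP190 without CLAMP (5.80% of genes). SPARC had CP190 and the first CLAMP antibody (4.70%), and Ppn had CP190 alone (24.8%). By this rule the 3 laminin genes had the same set of proteins, a set that 19.1% of all genes also had. The 2 collagen IV genes had another, but they lie side by side, and their Su(Hw) is 1 peak counted for both.

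Peaks are given below by their fold enrichment, which is the authors' value for how far the ChIP signal at the summit exceeded the background. It was used within a list and not as an amount compared between lists, and ranks are by fold with 1 as the strongest. Peaks of the 5 mock lists that overlapped by at least 1 base were joined into sites, which gave 34 sites at the members. Of these, 18 came from a single list, among them 16 from CP190 alone, and 1 site was found in all 5 lists. Gene spans are from RefSeq on Release 6, the assembly that dm6 names. The table gives no strand, exon or intron, so the ends of a span are called the low and the high end by coordinate.

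**Figure D2:**
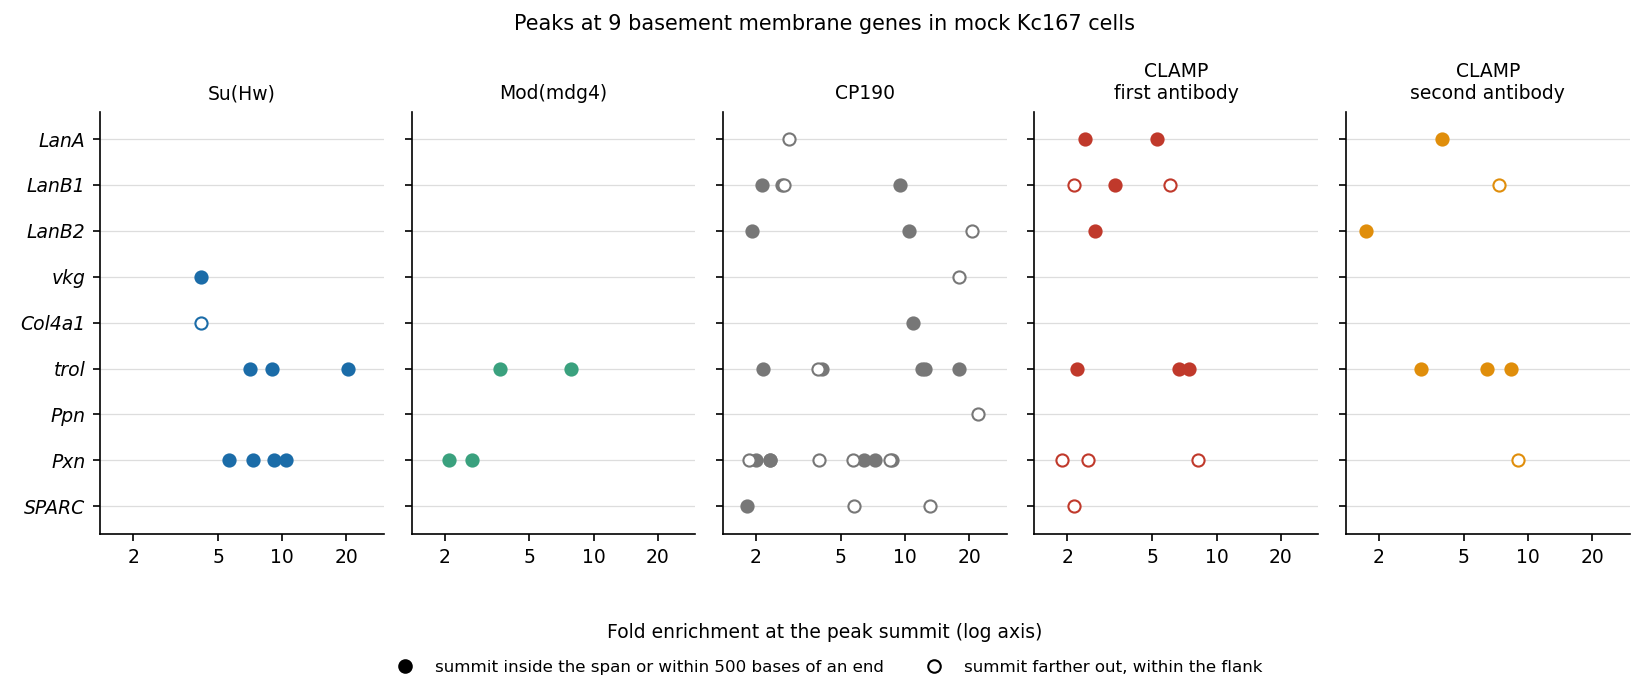
Fold enrichment (horizontal log axis) of every mock peak at each member (rows), in 1 panel per peak list. Filled points have the summit inside the gene span or within 500 bases of an end and open points farther out; the strongest CP190 peaks of LanB2, vkg, Ppn and SPARC are open points.

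The laminin genes carried CLAMP at an end of the gene, and the insulator proteins other than CP190 were not found there. LanA, LanB1 and LanB2 encode an alpha, the beta and the gamma chain of laminin. In all 3 the first antibody had a CLAMP summit at most 500 bases from an end, and LanA and LanB2 a second-antibody summit as well. Across all genes, 12.8% and 10.8% had such a summit for the first and second antibody. This rule was added after seeing the data, and no share for genes of like length was computed for it.

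At LanA (chr3L:6203831-6218022) CLAMP lay at the high end. The first antibody had a 5.28-fold peak (chr3L:6217553-6219018) with its summit 167 bases from that end, and the second a 3.95-fold peak (chr3L:6217163-6218453) with its summit 325 bases from it. Both summits lay inside the span and 158 bases apart. A weaker 2.41-fold peak of the first antibody lay 1333 bases inside the gene. No CP190 peak overlapped either site. The only CP190 peak near LanA was 2.85-fold, stood outside the span at 1714 bases from the high end, and was closer to the end of CG33946 (842 bases). LanA was therefore the laminin gene where CLAMP and CP190 did not overlap.

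At LanB1 (chr2L:7811438-7820771) CLAMP and CP190 covered the gap between the low end and Cdc14, which encodes a protein phosphatase. The second antibody gave a single broad peak of 3049 bases (chr2L:7809048-7812096, 7.29-fold). Over the same stretch the first antibody gave 3 peaks of 6.02-, 2.15- and 3.35-fold. The strongest of them had its summit 6 bases from the second-antibody summit, and both lay inside Cdc14. The 3.35-fold peak had its summit 437 bases inside LanB1. The CP190 peak there was 9.49-fold, 2421 bases wide, with its summit in the gap at 262 bases from LanB1. Of the overlapping peaks, CP190 was thus centred nearer to LanB1, and the stronger CLAMP summits lay in the neighbour. Weaker CP190 peaks of 2.13- and 2.64-fold lay inside LanB1, and a 2.71-fold peak lay beyond its high end.

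At LanB2 (chr3L:9614914-9623980) CP190 was strong for its list, and CLAMP was near the middle of the list with the first antibody and weak with the second. A 20.6-fold CP190 peak (chr3L:9613591-9615124) ranked 60th of the 9435 peaks of its list, and its summit lay in the 912-base gap to Tmc, 139 bases from Tmc and 774 from LanB2. The first-antibody CLAMP peak at the same site was 2.70-fold (rank 3065 of 5370), with its summit 61 bases from LanB2. That of the second antibody was 1.75-fold, 314 bases from LanB2. The second-antibody peak ranked 3816th of 3861, close to the weakest that the authors' threshold let through. At the high end CP190 had a 10.4-fold peak, 186 bases from LanB2 and 71 from CG3335. Another CP190 peak inside the gene was 1.92-fold.

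**Figure D3:**
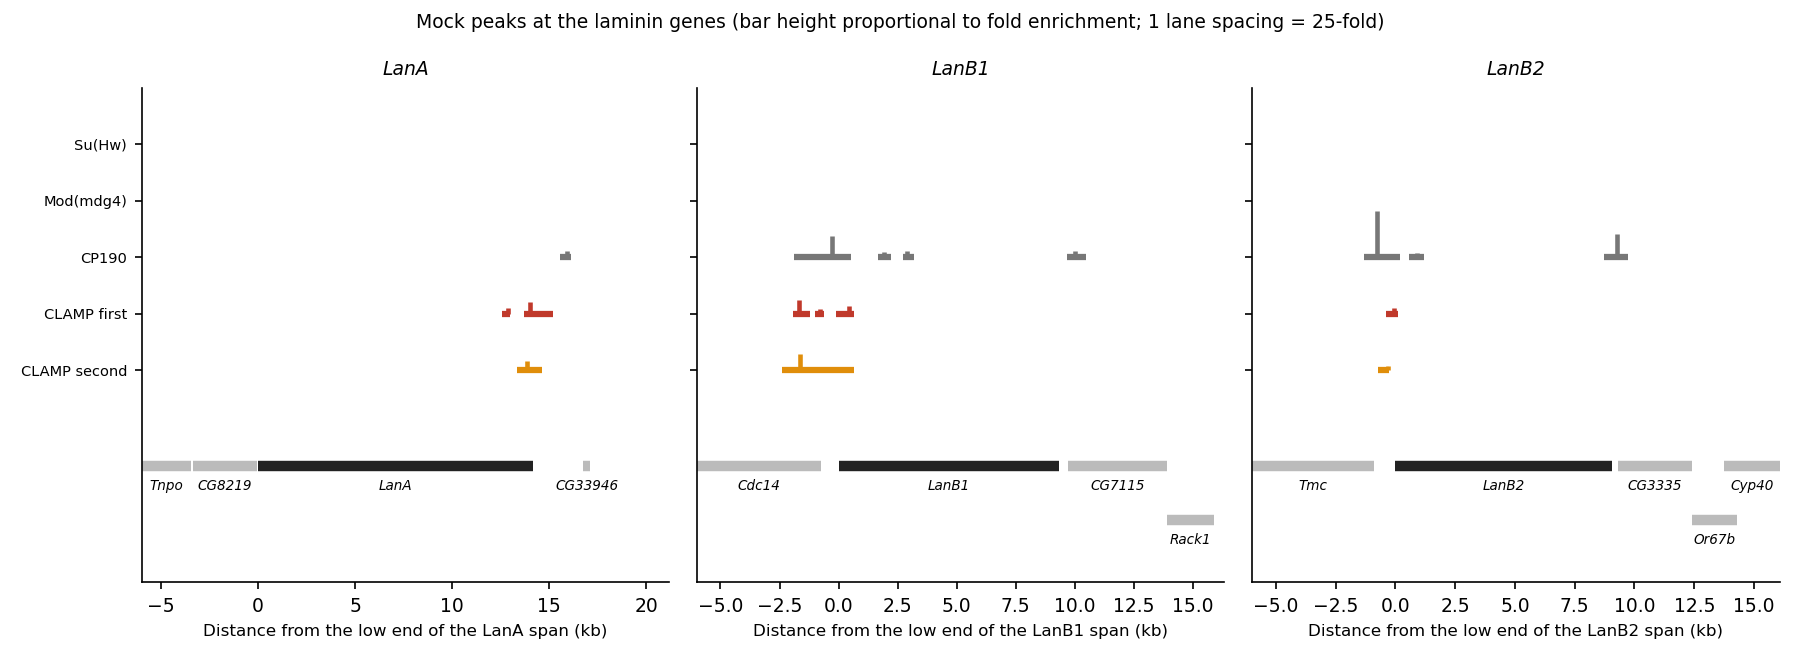
Mock peaks at LanA, LanB1 and LanB2 by distance from the low end of each span (horizontal axis, kb), with 1 lane per peak list. Horizontal bars are peak extents, vertical bars stand at summits with height proportional to fold enrichment, black bars below are the laminin genes and grey bars their protein-coding neighbours; the Su(Hw) and Mod(mdg4) lanes are empty.

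The collagen IV genes had no CLAMP peak by either antibody within 5 kb. vkg (chr2L:5012144-5028191) and Col4a1 (chr2L:5029609-5037279) encode the alpha2 and alpha1 chains of collagen IV, and 1417 bases separate their spans. A Su(Hw) peak of 4.15-fold (chr2L:5025727-5026077) lay inside vkg, 2324 bases from the end that faces Col4a1. It counted for both genes and overlapped no other peak. It ranked 2890th of 3687, and was the only Su(Hw) peak at a member without CP190. No peak of any list had its summit between the paired genes.

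The CP190 peaks of the pair lay towards its outer sides. On the side of vkg a 17.8-fold CP190 peak (chr2L:5009210-5011384, rank 251) lay outside the gene, with its summit 2294 bases from vkg and 81 bases from the shared end of CG31917 and Tfb5, the latter a subunit gene of the general transcription factor TFIIH. In Col4a1 a 10.8-fold CP190 peak (chr2L:5035858-5036813) lay inside the span, 916 bases from its far end. Just beyond the 5 kb limit, at 5.72 and 6.25 kb from Col4a1, the second and first CLAMP antibodies had 6.32- and 4.18-fold peaks. Their summits lay inside CG31650, CG33995 and 2 other genes with the span of CG33995. A 12.7-fold CP190 peak overlapped both CLAMP peaks, with its summit inside CG31650 and 44 bases outside CG33995.

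trol, which encodes perlecan, had the most mock sites after Pxn, 7 along a span of 75.0 kb (chrX:2470460-2545427), and is the only member on the X chromosome. Its strongest site was at the low end, in and beside the 416-base gap to boi, which encodes a Hedgehog co-receptor. All 5 mock proteins and antibodies had a peak there. Su(Hw) was 20.3-fold (chrX:2469720-2470323, rank 89 of 3687) and Mod(mdg4) was 7.81-fold (chrX:2469801-2470340, rank 129 of 1732). CP190 was 17.8-fold (chrX:2469443-2470524, rank 244 of 9435). CLAMP was 7.43-fold with the first antibody (chrX:2469605-2470268, rank 635 of 5370) and 8.35-fold with the second (chrX:2469483-2470374, rank 699 of 3861).

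The 5 summits fell within 96 bases of each other. That of Su(Hw) was 5 bases from the end of boi and 422 from trol, that of CP190 12 bases from boi and 405 from trol, and that of Mod(mdg4) 35 bases from boi and 382 from trol. The CLAMP summits were 19 and 61 bases from the end of boi, inside it, and 436 and 478 bases from trol. The summit of the first antibody lay 14 bases from that of Su(Hw), and that of the second 56 bases. By position the site thus belongs to the end of boi at least as much as to trol. Sites in all 5 lists were uncommon: 122 of 12953 on the arms (0.942%).

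Inside trol the insulator proteins and CLAMP were at different places. At 33.1 kb from the low end Su(Hw) (8.95-fold), Mod(mdg4) (3.62-fold) and CP190 (11.95-fold) had summits within 21 bases, without CLAMP. At 28.9 kb Su(Hw) (7.06-fold) and CP190 (4.10-fold) were found without Mod(mdg4) or CLAMP, with summits 112 bases apart. CP190 stood alone 54.2 kb from the low end with 12.4-fold enrichment. CLAMP stood alone at 38.3 kb with 2.21-fold enrichment for the first antibody, and at 38.5 kb with 3.14-fold for the second, a single site with summits 141 bases apart. Only the low-end site joined Su(Hw) and CLAMP.

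At the high end of trol CLAMP was again strong, and CP190 was weak. The first antibody was 6.67-fold (chrX:2545172-2546003) with its summit 124 bases beyond the end, and the second 6.40-fold (chrX:2545109-2546308) at 185 bases. CP190 there was 2.15-fold, 52 bases from the end, rank 8516 of 9435. A further CP190 peak of 3.92-fold lay 1844 bases from the end. Both CLAMP antibodies therefore had a summit within 500 bases of each end of trol, and Su(Hw) and Mod(mdg4) only of the low end. There the CLAMP, Su(Hw) and Mod(mdg4) peaks lay 86 to 192 bases outside the trol span.

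**Figure D4:**
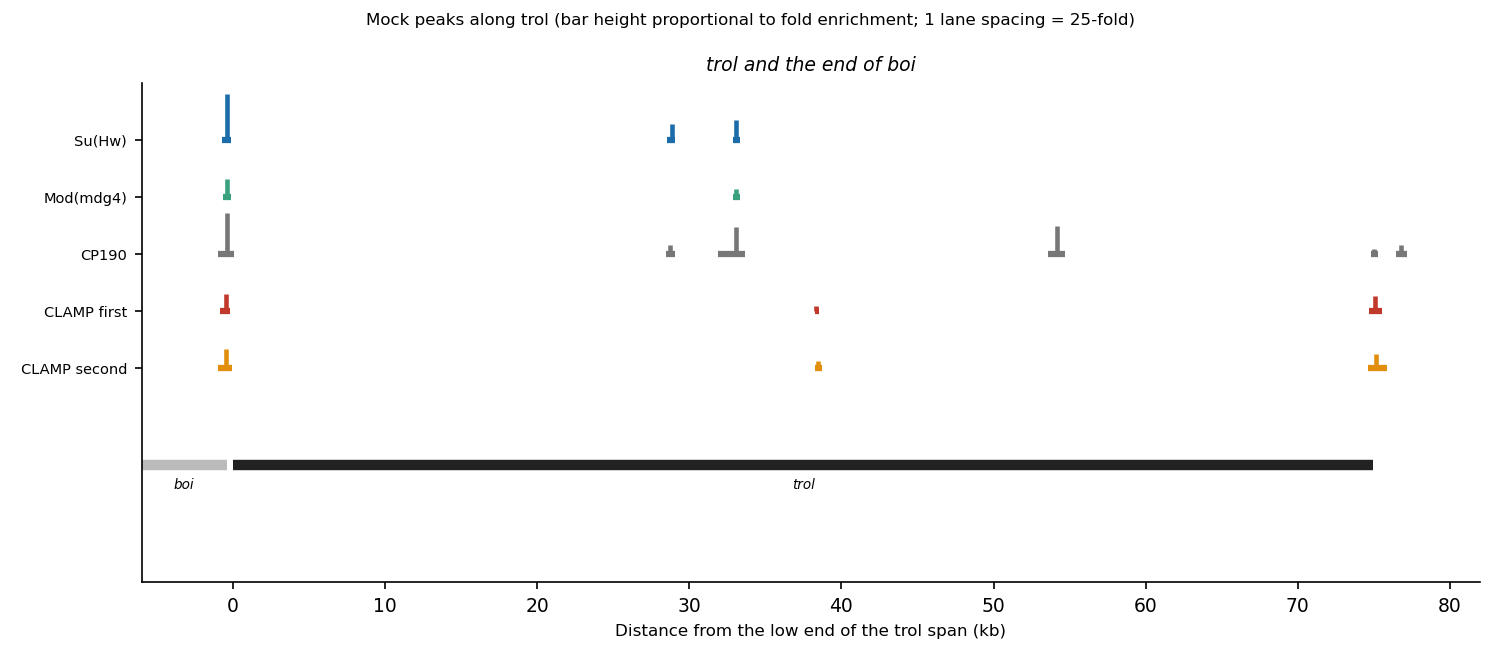
Mock peaks along trol by distance from the low end of its span (horizontal axis, kb), with 1 lane per peak list. Horizontal bars are peak extents, and vertical bars stand at summits with height proportional to fold enrichment; all 5 lanes have a peak at the boi end, and 2 CLAMP peaks and a weak CP190 peak mark the opposite end.

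Ranked within each list by the strongest peak within 5 kb, the genes most like trol over the 6 lists were CG32204 and CG6836, which share their peaks with each other, and dysc. Their mean difference in percentile rank from trol was 1.84, 1.84 and 1.94 points. At dysc the strongest peaks were 20.01-fold for Su(Hw), 12.01-fold for Mod(mdg4), 16.5-fold for CP190 and 7.32- and 7.79-fold for CLAMP. Those most like LanA were CG13252, caps and CG14369, at 0.227, 1.87 and 2.14 points. None of the 6 genes is among the basement membrane genes listed here, and each list counted equally.

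Pxn had the most peaks of any member, 20 in the mock lists, and the most Su(Hw). It encodes peroxidasin, an extracellular peroxidase that cross-links collagen IV. Within its span (chr3L:2601455-2630064) 4 Su(Hw) peaks lay between 7.61 and 21.0 kb from the low end, with 10.4-, 5.61-, 7.32- and 9.14-fold enrichment in order of position. CP190 overlapped each of them, at 8.71-, 2.33-, 6.43- and 7.20-fold. Mod(mdg4) was present at the 10.4- and the 7.32-fold site, at 2.69- and 2.097-fold, and the latter ranked 1690th of 1732. CLAMP was at none of the 4.

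The Su(Hw) and CP190 summits at these sites were close. They lay 5, 119, 35 and 1 bases apart in the same order. The 9.14-fold Su(Hw) site also falls in lncRNA:CR45981, a non-coding RNA gene inside the Pxn span. Over all 7 member sites with both proteins the distance ran from 1 to 119 bases with a median of 21, the 3 others being those of trol.

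CLAMP at Pxn lay outside the gene on both sides. On the low side a 1.89-fold first-antibody peak lay with a 3.95-fold CP190 peak where CG12182 and CG16985 overlap. On the high side CP190 had an 8.46-fold peak 173 bases from MEP-1, which encodes a zinc-finger partner of the chromatin remodeller Mi-2, and CG42245 with the same span. Inside those genes a 2.504-fold first-antibody peak met a 1.85-fold CP190 peak. Farther in, the first antibody had an 8.18-fold peak (chr3L:2634821-2635970) and the second an 8.98-fold peak (chr3L:2634674-2636135), with summits 15 bases apart and a 5.69-fold CP190 peak. This was the strongest CLAMP enrichment at any member, but it lay 4.61 to 4.82 kb outside Pxn, the last peaks that the 5 kb limit let in. The next beyond the limit, over all members, was a 10.7-fold CP190 peak 5.43 kb from SPARC. Near the high end of Pxn itself there were only CP190 peaks, 1.99-fold at 702 bases inside and 2.33-fold at 111 bases beyond.

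Ppn carried the fewest peaks. Ppn (chr3R:28520665-28540324) encodes papilin, a matrix glycoprotein related to the ADAMTS proteases, and had a single peak in all the lists. That CP190 peak was 21.9-fold (chr3R:28544314-28545854, rank 30 of 9435), the strongest at any member, but lay 3.99 kb outside the span with its summit 386 bases from mIF2, which encodes a mitochondrial translation initiation factor. The 19.7 kb span of Ppn itself held no peak.

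SPARC (chr3R:26869238-26871995), the shortest member at 2758 bases, encodes a collagen-binding matrix protein that collagen IV needs for normal deposition. Its own CP190 peak was 1.81-fold, 153 bases from its high end and rank 9166. Stronger CP190 lay at neighbours, 13.1-fold between ball, which encodes a histone kinase, and the histone variant gene His2Av, and 5.74-fold at ms(3)K81. A 2.16-fold first-antibody CLAMP peak overlapped the first of these, with summits 48 bases apart, and the second antibody had none there.

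**Figure D5:**
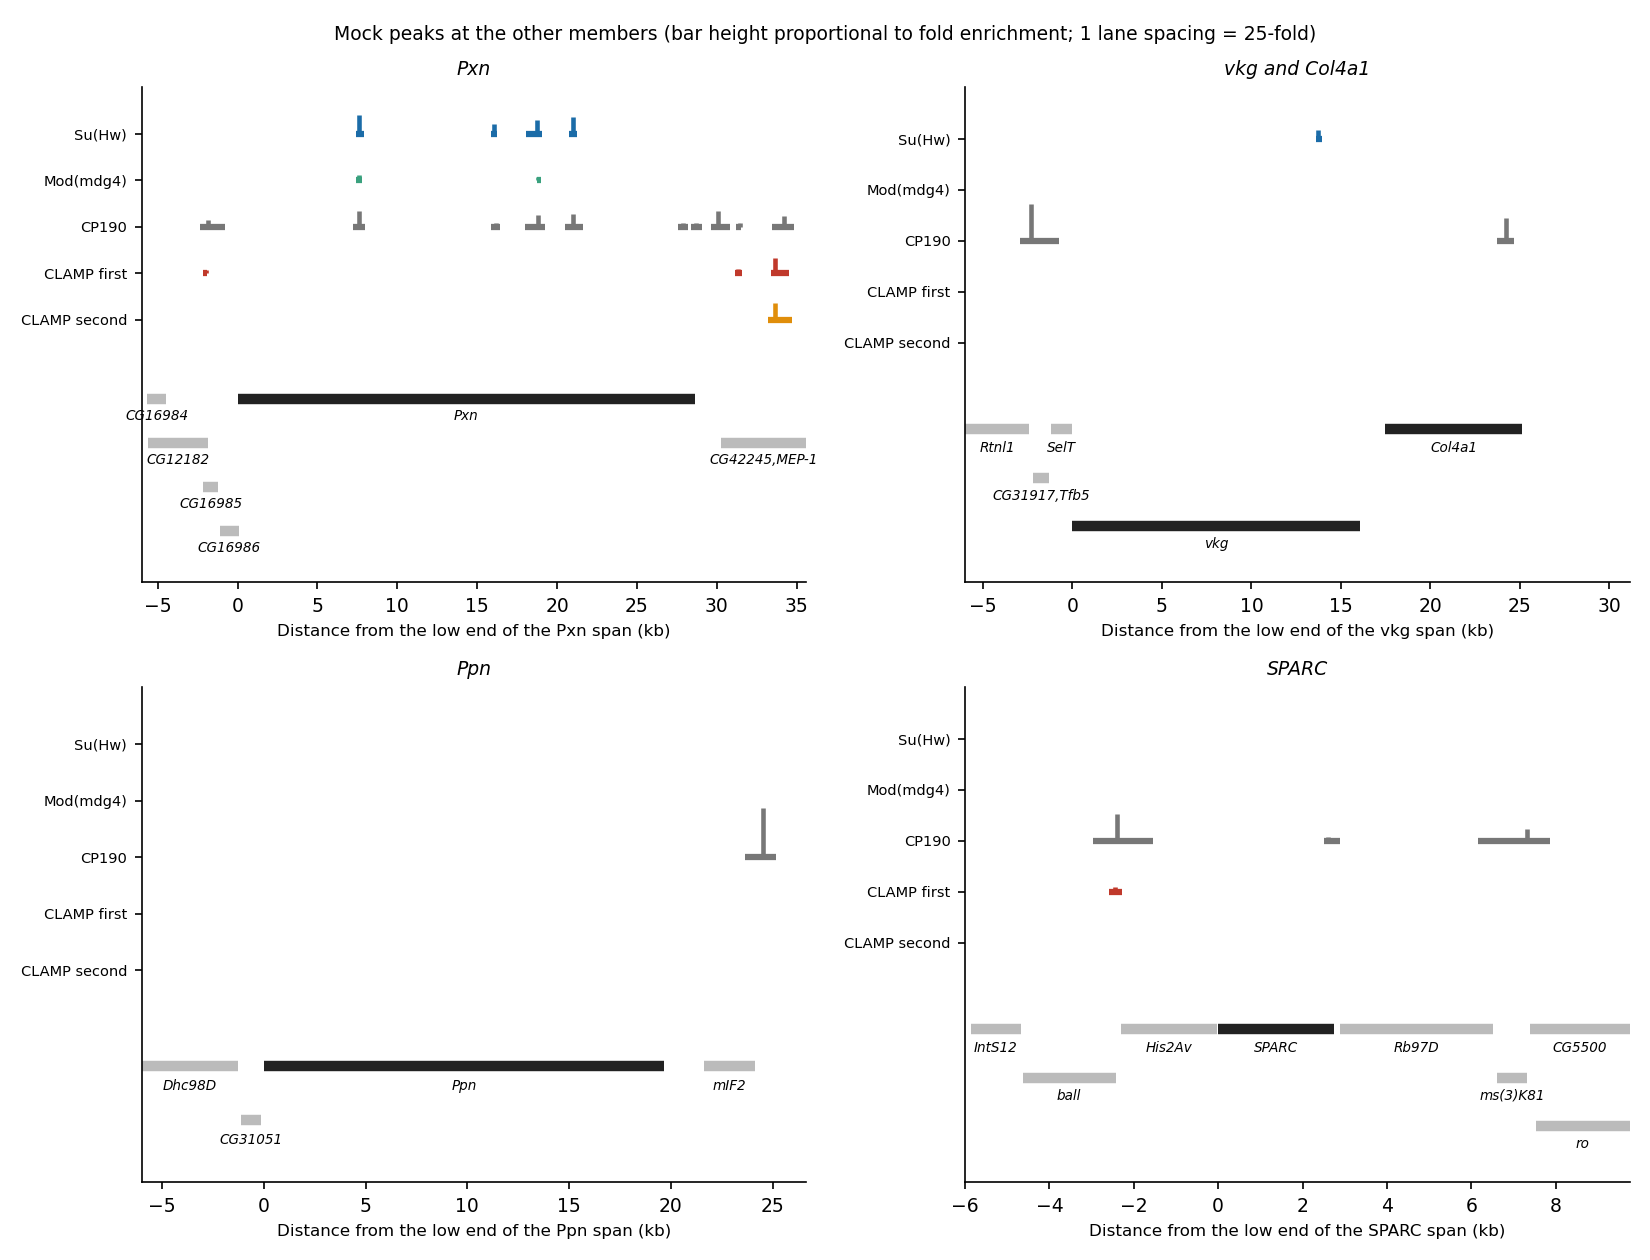
Mock peaks at Pxn, at vkg and Col4a1, at Ppn and at SPARC by distance from the low end of the span (horizontal axis, kb), with 1 lane per peak list. Horizontal bars are peak extents, vertical bars stand at summits with height proportional to fold enrichment, and members are black among grey neighbours; the 4 Su(Hw) peaks of Pxn lie over CP190 peaks, and the single peak of Ppn lies past mIF2.

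Across the members, the gene end nearest to a summit was often that of another gene. By this measure a summit inside a member's own span can still count for another gene, as several did in trol and Pxn. Of 30 CP190 peaks, 11 had a member's end as the nearest gene end and 19 that of another gene, RNA genes inside trol and Pxn included. For CLAMP these counts were 5 and 8 with the first antibody and 3 and 4 with the second. All 8 Su(Hw) and all 4 Mod(mdg4) peaks lay inside a span or within 500 bases of its end, while 12 CP190 peaks and 6 and 2 CLAMP peaks lay farther out. A rule added after seeing the data asked for a summit within 500 bases of an end. By it 5 members had CP190, 4 and 3 had CLAMP by the first and second antibody, and trol alone had Su(Hw) and Mod(mdg4). The same rule called 44.4%, 12.8%, 10.8%, 4.68% and 3% of all genes in that order, and 0.56% for CLAMP after dsRNA, where no member was called. Counting only peaks with a base in the span itself, CP190 was at 6 members (50.5% of all genes), the first and second CLAMP antibodies at 4 and 3 (15.8% each), Su(Hw) at 3 (8.55%), Mod(mdg4) at 2 (4.39%) and CLAMP after dsRNA at none (1.11%). The span rule depends on length, and the median span was 14192 bases for the members against 1710 for all genes. No share for genes of like length was computed for it, so these counts cannot be read as an excess.

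The median peak strength within 5 kb of the members was close to that of each whole list except for the second CLAMP antibody. The median fold was 8.14 against 7.14 for all Su(Hw) peaks, 3.16 against 3.54 for Mod(mdg4), 5.72 against 5.59 for CP190 and 2.70 against 2.92 for the first CLAMP antibody. For the second it was 6.40 against 3.64, over 7 peaks that ran from 1.75- to 8.98-fold. The strongest, at 8.98-, 8.35- and 7.29-fold, had their summits inside neighbours: MEP-1 and CG42245, boi, and Cdc14. The others were 6.40-, 3.95-, 3.14- and 1.75-fold, so the higher median is not one of peaks in the members themselves. Those 7 peaks were also wide, with a median of 1200 bases against 785.

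CLAMP peaks at the members often overlapped CP190. Of the 13 first-antibody peaks 10 overlapped CP190, and of the 7 second-antibody peaks 5 did. The shares over all peaks were 49.4% and 57.8%. Of the 10 first-antibody peaks, 3 lay at the 1 LanB1 site under a single CP190 peak. Counted by site, 8 of the 11 first-antibody sites held CP190, and the like share over the arms was not computed. The closest CLAMP and CP190 summits of a site lay 31 to 713 bases apart with the first antibody (median 96.5 over 8 sites) and 73 to 1387 with the second (median 460 over 5 sites). Su(Hw) and CLAMP met at 1 of the 34 sites, the end of boi, against 3.43% of all sites.

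The second CLAMP antibody added no site that the first had missed. All 7 second-antibody peaks overlapped a first-antibody peak, against 80.3% over the list. Of the 13 first-antibody peaks 9 overlapped the second, against 65.3%. These 9 include 3 peaks at LanB1 under a single second-antibody peak, and by site 7 of 11 held both antibodies. The 4 first-antibody peaks without the second antibody had 1.89- to 2.504-fold enrichment and lay at LanA, SPARC and, with 2, at Pxn.

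After Clamp dsRNA none of the 7 mock peaks of the second antibody had an overlapping peak, at trol, LanA, LanB1, LanB2 or Pxn. This includes the site between boi and trol, at 8.35-fold in mock cells. Over the list 94 of 3861 mock peaks (2.43%) had one, and among the 3216 with a fold in the range of the members' peaks 34 (1.06%) had, so that none among 7 is near the background. Of the first-antibody mock peaks 722 of 5370 (13.4%) overlapped a dsRNA peak, and none of the 13 at the members did. The nearest dsRNA peak to a member lay 34.9 kb from Pxn, then 36.5 kb from LanB2 and 47.4 kb from Ppn. For trol it was 345 kb away and for LanB1 1198 kb. The dsRNA libraries carry the numbers 46 and 47 and the mock libraries 31 and 32, so the treatment and the library set cannot be told apart, and the part that depth has in the missing peaks was not tested.

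A further 32 basement membrane genes comprised 7 matrix proteins, 12 receptors, 8 genes of collagen processing and matrix secretion, and 5 genes of matrix turnover. In all, CP190 was at 29, the first and second CLAMP antibodies at 19 and 15, Su(Hw) at 15, Mod(mdg4) at 7 and dsRNA CLAMP at 1. Of protein-coding genes in the members' length range, 91.4% had CP190, 54.1% and 51% CLAMP, 34% Su(Hw), 18.3% Mod(mdg4) and 2.74% dsRNA CLAMP. Of all genes the shares were 78.2%, 37.9% and 35.8%, 26.5%, 14.2% and 2.58% in that order. The totals other than that for Su(Hw) are near the shares in the length range. The 32 genes run from 0.958 to 88.8 kb, however, beyond both ends of that range. By role, CLAMP was at 10 and 9 of the 12 receptor genes and at 1 and none of the 7 matrix genes. Receptor genes with CLAMP ran from ItgaPS5 (3.59 kb) to Sdc (88.8 kb), and Ddr (70.3 kb) had the first antibody only. Those without it, scb and ItgaPS4, spanned 9.7 and 4.1 kb. Of the matrix genes without CLAMP, wb (65.2 kb) and Mp (54.7 kb) were long. Ndg, Tig, loh and prc, also without it, spanned 7.26 to 8.21 kb. Su(Hw) was at all 5 turnover genes and at 4 receptor genes, against 34% in that length range. These are counts over few genes of unequal length, and the difference between roles was not tested.

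Among the matrix genes, wb, which encodes the other laminin alpha chain, had CP190 (17.6-fold) and no CLAMP, unlike LanA. Ndg, which encodes nidogen, and Mp, a collagen XV/XVIII gene, had Su(Hw) at 4.41- and 10.3-fold and no CLAMP. Glt, which encodes glutactin, had only a 1.98-fold peak of the first antibody.

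A CLAMP summit of either antibody lay no more than 500 bases from an end in 10 of the 32 genes. By antibody, 8 genes had one with the first and 5 with the second, against 12.8% and 10.8% of all genes. The share of all genes for either antibody was not computed, nor was a share for genes of like length. Of the 10 genes, the 6 with the largest folds were Sdc, Plod, AdamTS-A, PH4alphaEFB, ItgaPS5 and dally. Sdc encodes syndecan, a heparan sulfate proteoglycan of the cell surface, and had 7.52- and 12.6-fold CLAMP. Plod, which encodes a collagen lysyl hydroxylase, had 5.43- and 8.99-fold. AdamTS-A, a secreted metalloprotease gene, and PH4alphaEFB, a collagen prolyl hydroxylase gene, had 5.71- and 4.22-fold with the first antibody and none with the second. ItgaPS5, an integrin alpha gene, had 3.74-fold with the second antibody at its end, and dally, a glypican gene, 3.54-fold with the first. The only gene with a dsRNA peak was mys, the integrin beta-PS gene, at 3.28-fold within 5 kb but outside its span. The strongest mock peaks within 5 kb of mys were 18.3- and 19.3-fold. Whether the dsRNA peak overlapped them is not given here.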

How the data were processed

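Chromatin immunoprecipitation was sequenced from Kc167 cells, and the authors deposited 6 peak lists in the narrowPeak layout, whose row names carry the word pooled. The submitters' processing notes name MACS2 2.1.0.20150731 and build dm6, and also Bowtie2 2.2.9, Picard, cutadapt 1.8.1 and SAMtools 1.2. Their settings were not stated. The deposited fold enrichment is the ratio of signal over background at a summit. The deposited score equals 10 times the −log10 q rounded down in every row, and the deposited −log10 q served only to pick the best-ranked peaks in the alternatives. Read numbers are not given, so a missing peak means that none passed the authors' threshold.

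Peaks on the 6 arms were placed at genes of the RefSeq table (Release 6) within 5 kb, with Python 3.11.15 and pandas 2.3.3. Counting was tested on simulated peaks at 200 genes, and 200 were placed correctly. The comparisons are between lists and between members and all genes, as counts, with no test. Alternatives were other windows, best-ranked peaks, summit rules and, added after seeing the data, gene ends. The members and gene lists were chosen with earlier results of these data known. All members, boi and nearer neighbours were named, and of the 32 other genes the 6 with the largest CLAMP fold at an end; genes most like trol and LanA were the 3 nearest by mean percentile difference. Others (mys, Ddr, scb, ItgaPS4, wb, Ndg, Mp, Tig, loh, prc, Glt) were chosen after their values were seen. The planned promoter search was not run, since no sequence was used here.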

Additional observations from a re-analysis of the deposited data

How the results depend on the processing

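No paired analysis was possible because each list pools its 2 libraries, and for the same reason no library could be left out. Of 114 values recomputed under another setting, 76 stayed within 1.5 times the main count. CLAMP after dsRNA stayed at 0 members in all settings. These counts of 0 are among the 76, and a shorter list or a narrower window could not have raised them. With each list limited to its 1000 best-ranked peaks, members with a peak fell to 3 and 3 for the first and second CLAMP antibody, 5 for CP190, 1 for Mod(mdg4) and 2 for Su(Hw), sites to 11, first-antibody peaks shared with the second to 3, CLAMP peaks shared with CP190 to 0 and 1, and other basement membrane genes with a peak to 6, 8, 16 and 6 for the first and second CLAMP antibody, CP190 and Su(Hw). With the 50% best-ranked peaks, 1 member had Mod(mdg4) and 2 had Su(Hw), 20 sites were left, 5 and 3 CLAMP peaks shared CP190, and 8 other genes had Su(Hw). Without a window, 3 members had the second CLAMP antibody, 5 first-antibody peaks met the second, 3 and 2 CLAMP peaks met CP190, and 0 other genes had CLAMP after dsRNA. A 1 kb window left 5 first-antibody peaks at CP190, and a 10 kb window gave 9 second-antibody peaks there. Summits within 250 bases left 5 and 2 CLAMP peaks at CP190. With summits within 500 bases of a gene end, a rule added after seeing the data, 3 members had the second CLAMP antibody, 5 CP190, 1 Mod(mdg4) and 1 Su(Hw), and of the other genes 8 and 5 had CLAMP, 0 had it after dsRNA, 18 had CP190, 3 Mod(mdg4) and 3 Su(Hw). Each of these settings leaves fewer or more peaks to count by its construction.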

Other observations

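Outside the 5 kb limit, the strongest CLAMP site within 10 kb of any member lay 6.64 kb beyond LanB1 with the second antibody and 6.81 kb with the first, at mts, which encodes the catalytic subunit of protein phosphatase 2A. It had 22.7-fold enrichment (rank 17 of 3861) and 17.7-fold enrichment (rank 9 of 5370), with a 9.34-fold CP190 peak. Between 5 and 10 kb from the members lay 11 CP190, 5 and 4 CLAMP and 2 Su(Hw) peaks, with the CP190 peak inside Col4a1 counted for vkg.

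The windows of the members, 264 kb in all, held 11.4 CP190 peaks per 100 kb against 7.05 on the arms. For Su(Hw) the values were 3.03 and 2.76, for Mod(mdg4) 1.52 and 1.29, and for CLAMP 4.93 and 4.01 with the first antibody and 2.65 and 2.89 with the second. Windows around genes hold more gene ends than the arms at large, and the part of this in the CP190 value was not tested.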
